A study of Mus musculus with 12 samples.

Results

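The genes of the proteasome were examined in testis RNA of mice. A gene was included when its symbol was Psm followed by a letter from a to g and a number, and 50 of the 20718 genes of the table met this rule. There were 4 groups with 3 libraries each. All mice were of the strain that the labels give as IRC mouse and the study's methods as ICR, all received a lentivirus by injection at 4 weeks of age, and were raised for 5 weeks, then mated for 4 days and kept for 4 more days. The F0_5251KD group received 3 short hairpin RNAs against lncRNA5251, a long non-coding RNA, in the LV3 backbone, and the F0_3NC group received the negative control in that backbone. The F0_5251OV group received full-length lncRNA5251 in the LV5 backbone, and the F0_5NC group the empty LV5 virus. F0 marks the injected generation. Which cells of the testis took up the virus is not stated, and the level of lncRNA5251 itself was not analysed here. Whether the libraries of 1 group stem from different animals is also not stated, so a p-value here weighs a difference only against the spread among the libraries at hand, which may be technical.

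The proteasome is the protease complex that degrades proteins marked with ubiquitin. Its core particle (20S) is a barrel of alpha rings and beta rings, and 3 of the beta subunits (Psmb5, Psmb6 and Psmb7) carry the catalytic sites inside the barrel. Cells exposed to interferon replace these with Psmb8, Psmb9 and Psmb10, which gives the immunoproteasome that makes peptides for MHC class I molecules, while germ cells from meiosis onward replace the alpha ring subunit Psma7 with Psma8 in the spermatoproteasome. The barrel is opened by the regulatory particle (19S), built from ATPases (the Psmc genes) that unfold substrates and non-ATPase subunits (the Psmd genes), or by the activators Psme1 and Psme2 (PA28 alpha and beta), Psme3 (PA28 gamma) and Psme4 (PA200), the last of which acts on acetylated histones in spermatids.

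By these roles the 50 genes comprised 7 constitutive alpha subunits, the germ cell subunit Psma8, 4 beta subunits with no immune form, 3 constitutive and 3 immune catalytic subunits, the thymus subunit Psmb11, 6 ATPases and 11 non-ATPase subunits of the regulatory particle, 3 chaperones of its assembly (Psmd5, Psmd9 and Psmd10), 4 chaperones of core assembly (Psmg1 to Psmg4), 4 activators and the inhibitor Psmf1. The remaining 2 matched the rule without such a role. Psmc3ip is a recombination factor of meiosis whose name comes from binding Psmc3, and Psme2b is a copy of Psme2 in the mouse genome. All 50 genes were found in RefSeq, spread over 16 chromosomes.

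Promoter sequence of the genes is shown for the factors best known to act on them: Nfe2l1 (NRF1), which raises proteasome genes through the antioxidant response element when proteasome activity is short, and interferon signalling, which acts through the interferon-stimulated response element and the gamma-activated site. The RefSeq table (GRCm38.p6) held a promoter of 42 of the 50 genes, from 250 bases before to 50 bases after the start. Searched on both strands, the letters TGACNNNGC of the antioxidant response element were in promoters of 6 genes (14.3%), namely Psmb5, Psmb6, Psmc6, Psmd9, Psmd12 and Psme4, and in 12.4% of all 32851 promoters. The letters GAAANNGAAA of the interferon-stimulated response element were in those of 5 genes (11.9%), namely Psmb3, Psmd4, Psmd9, Psme1 and Psmg4, and in 3.44% of all promoters. The letters TTCNNNGAA of the gamma-activated site were in those of Psmb8, Psmd2 and Psmg1 (7.14%), and in 8.3% of all promoters. The latter motifs can overlap at their ends, and no gene named here had both. The shares of the 42 genes count a gene once if any of its promoters matched. The shares of all promoters count each promoter, 32851 of them from 27025 genes. A gene with several promoters has more chances of a match, so these shares are not on the same scale. A match is only a description of the sequence. The 250 bases before the start of a constitutive catalytic gene and of the immune gene for the same position in the ring are printed here, Psmb5 from chr14:54617996-54618245 on the minus strand and Psmb8 from chr17:34197945-34198194 on the plus strand. Capitals mark the antioxidant response element of Psmb5, whose first base lies 47 bases before the start, and the gamma-activated site of Psmb8, 97 bases before the start. In Psme1 the interferon motif read TTTCGCTTTC, its reverse complement, with its first base 9 bases past the start.
Psmb5: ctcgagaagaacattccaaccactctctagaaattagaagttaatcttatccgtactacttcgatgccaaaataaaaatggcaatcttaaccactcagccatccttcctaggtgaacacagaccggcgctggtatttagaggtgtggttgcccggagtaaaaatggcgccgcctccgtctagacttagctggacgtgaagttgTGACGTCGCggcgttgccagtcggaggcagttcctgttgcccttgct
Psmb8: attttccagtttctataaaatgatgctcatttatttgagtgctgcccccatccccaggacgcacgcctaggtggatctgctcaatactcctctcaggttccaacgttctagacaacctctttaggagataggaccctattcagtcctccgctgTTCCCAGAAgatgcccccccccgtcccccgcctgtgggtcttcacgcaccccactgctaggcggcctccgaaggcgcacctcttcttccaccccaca

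Total estimated counts lay between 15431383 and 16355720 per library, a ratio of 1.06, and the proteasome genes took 0.553% to 0.569% of them. The germ cell markers Sycp3 (177 to 228 FPKM, the fragments per length of transcript in a library of standard size) and Prm1 (9805 to 12381 FPKM) were high in every library, as the label testis implies. The epididymis markers summed to 8.42 to 71.6 FPKM in F0_5NC and 0.31 to 50.2 FPKM in F0_5251OV, with Crisp1 at 71.2 FPKM in F0_5NC replicate 2. They summed to 0.36 to 5.02 FPKM in F0_3NC and 0.41 to 0.51 FPKM in F0_5251KD. The high sums were almost all Crisp1. Of the 5 epididymis markers listed, 3 had values and only Crisp1 had enough counts to be tested. Defb20 lay between 0.00 and 0.47 FPKM and Adam28 at 0.08 FPKM or less in every library. The leukocyte markers summed to between 7.21 and 16.5 FPKM, with Cd3e and Cd8a at 0.3 FPKM or less. F0_5NC replicate 1 and F0_5251KD replicate 1 had the highest Leydig marker sums (4353 and 3770 FPKM, against 1694 to 2464 FPKM in the others). Most of each sum was Insl3 (3541 and 2911 FPKM in these libraries). Hsd3b1 was also highest in them (135 and 146 FPKM), and Cyp17a1 was highest in F0_5NC replicate 1 (502 FPKM). Cyp11a1 and Star did not follow the sum. In F0_5NC replicate 1 they were at 118 and 56.4 FPKM, below F0_3NC replicate 2 (131 and 101 FPKM). F0_3NC replicate 2 and F0_5251OV replicate 1 departed from the means of their groups in the same direction for 76.4% of the 16297 genes tested. In whole testis RNA, fewer cells of a type and less RNA per cell cannot be told apart.

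Most proteasome genes were abundant, and their levels changed little from library to library. Of the 50 genes, 48 had enough counts to be tested, with a median of the mean levels of 49.3 FPKM against 6.18 FPKM over all genes tested. Their median coefficient of variation (CV, the SD as a percent of the mean) over the 12 libraries was 7.75%, against 13.6% over all genes tested. The genes left out were Psme2b, at 0.00 to 0.47 FPKM, and the thymus subunit Psmb11, at 0.00 to 0.09 FPKM and with at most 6 counts in a library. Psme2b and Psme2 each had fractional counts in 11 libraries, so reads may be shared between these copies.

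Although the core particle holds its subunits in equal number, their mRNA levels were not equal. The 14 constitutive core subunits ranged from 25.0 FPKM (Psma1) to 513 FPKM (Psma6) in their mean over the 12 libraries, a ratio of 20.5, and 10 of them lay within a factor of 2 of their median, 68.4 FPKM. Psma6, an alpha ring subunit, was the highest in every library, between 484 and 557 FPKM. The other constitutive alpha subunits lay at or below 91.8 FPKM (Psma3). The 4 beta subunits with no immune form ranged from 36.7 FPKM (Psmb2) to 95.4 FPKM (Psmb4), and the catalytic subunits lay at 85.6 FPKM (Psmb5), 121 FPKM (Psmb6) and 177 FPKM (Psmb7). Fragment bias and the transcript length used also enter a comparison of FPKM between genes, and their part was not tested.

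In the regulatory particle, the ATPases ranged from 31.2 FPKM (Psmc6) to 419 FPKM (Psmc3) and the non-ATPase subunits from 25.8 FPKM (Psmd14, the deubiquitinase of the particle) to 187 FPKM (Psmd8). Psmd2, which binds ubiquitin-like domains, was the steadiest gene, at 157 to 169 FPKM with a CV of 2.3%. The assembly chaperones of this particle, Psmd5, Psmd9 and Psmd10, lay between 8.36 and 11 FPKM, below all of its subunits, and the chaperones of the core particle between 3.76 FPKM (Psmg3) and 25.0 FPKM (Psmg2). Among the activators Psme4 was the highest, at 125 FPKM, and held 50.1% to 62.8% of the summed activator FPKM in a library. Psme3 lay at 55.8 FPKM, Psme2 at 21.0 FPKM and Psme1 at 19 FPKM, and Psme1 and Psme2 together held 14.2% to 25.1% of the activator sum. The inhibitor Psmf1 lay at 139 FPKM.

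**Figure D1:**
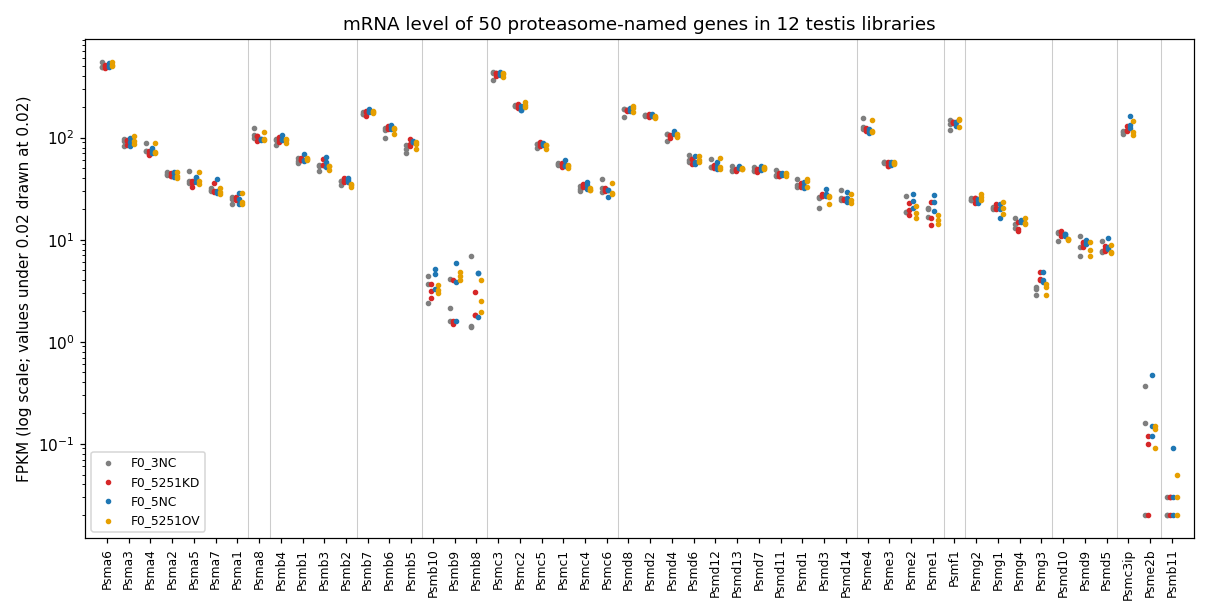
FPKM on a log scale of the 50 genes in each of 12 testis libraries, coloured by group and ordered by role and mean level, with vertical lines between the roles and values under 0.02 drawn at 0.02. Psma6 and Psmc3 are the highest, at means of 513 and 419 FPKM, and Psmb8, Psmb9 and Psmb10 scatter around 3 FPKM.

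The germ cell subunit Psma8 exceeded its constitutive counterpart Psma7 in 12 of 12 libraries. Psma8 was at 105, 125 and 99.4 FPKM in F0_3NC, 103, 104 and 92.1 FPKM in F0_5251KD, 97.6, 95.3 and 96.8 FPKM in F0_5NC, and 115, 95.7 and 96.9 FPKM in F0_5251OV. Psma7 was at 30.1, 31.8 and 30.5 FPKM in F0_3NC, 36.3, 29.7 and 29.7 FPKM in F0_5251KD, 39.3, 28.8 and 30.2 FPKM in F0_5NC, and 31.8, 29.1 and 28.1 FPKM in F0_5251OV. The highest values of Psma8 were in F0_3NC replicate 2 and F0_5251OV replicate 1. The highest of Psma7 were in F0_5NC replicate 1 and F0_5251KD replicate 1, the libraries with the highest Leydig marker sums, which were mostly Insl3. The ratio of Psma8 to Psma7 averaged 3.56 ± 0.344 (SD, n = 3) for F0_3NC against 3.15 ± 0.343 (n = 3) for F0_5251KD, and 3.00 ± 0.448 (n = 3) for F0_5NC against 3.45 ± 0.162 (n = 3) for F0_5251OV. Single libraries ranged from 2.49 to 3.94, and each treated group overlapped its control.

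Besides Psma7, the genes Psmb2, Psmb3, Psmb4, Psmb5 and Psmc4 had their highest FPKM in those same libraries with high Leydig sums. These were 6 of the 48 genes (12.5%), and 8.53% of all genes tested did so. The pair was picked after the values were seen, and the part of Leydig cell RNA in these levels was not tested.

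The immune catalytic subunits were low and varied far more than the constitutive ones. Psmb8, Psmb9 and Psmb10 had means of 3.01, 3.30 and 3.57 FPKM over the 12 libraries, with CVs of 57.6%, 46.4% and 22.7%, while the CVs of Psmb5, Psmb6 and Psmb7 were 8.7%, 7.73% and 3.81%. Lower counts alone give a larger CV, and Psmb9 had between 17 and 71 counts in a library. The square root of edgeR's dispersion, which leaves the counting error out, was 0.456 for Psmb8, 0.391 for Psmb9 and 0.173 for Psmb10, with a median of 0.120 over all genes tested and 0.085 over the 48. The summed immune FPKM was 1.59%, 4.23% and 1.74% of all catalytic FPKM in the F0_3NC libraries and 2.61%, 1.65% and 1.58% in those of F0_5251KD. It was 3.21%, 3.7% and 1.66% in the F0_5NC libraries and 2.7%, 2.35% and 2.99% in those of F0_5251OV. Each control group thus held both low and high libraries, and the treated groups lay within the range of their controls except for the lowest F0_5251KD library. The constitutive form was 10.3 to 59.2 times the immune form for Psmb5 over Psmb8, 21.9 to 82.9 times for Psmb6 over Psmb9, and 37 to 72 times for Psmb7 over Psmb10.

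**Figure D2:**
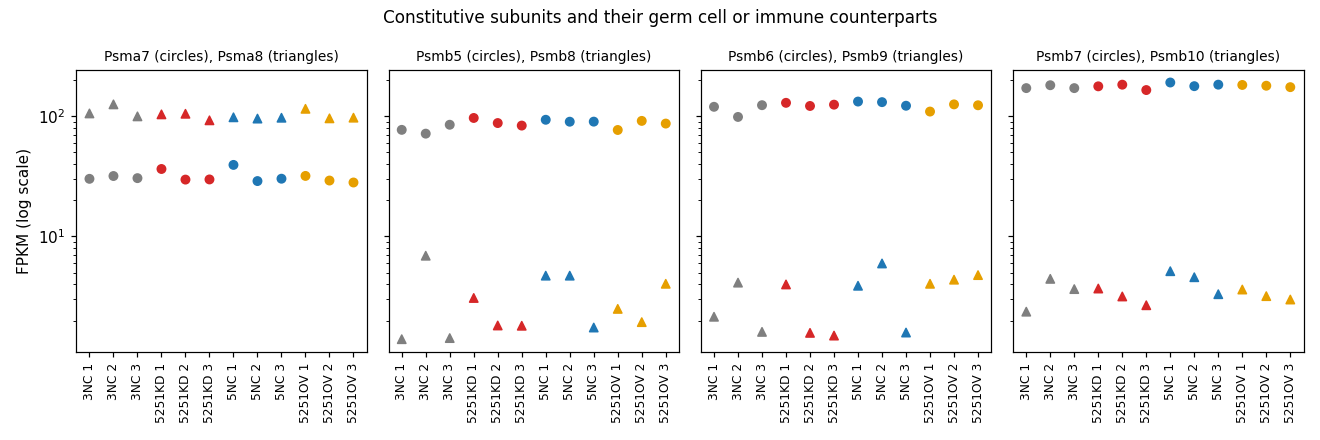
FPKM on a log scale of 4 constitutive subunits (circles) and their germ cell or immune counterparts (triangles) in 12 libraries, coloured by group as named on the horizontal axis. Psma8 lies above Psma7 in each library, and Psmb8 ranges from 1.40 to 6.91 FPKM below a Psmb5 that ranges from 71.4 to 96.4 FPKM.

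Psmb8 and Psmb9 lie beside each other in the MHC class II region of chromosome 17, in the order Psmb9, Tap1, Psmb8 and Tap2, from 34182030 to 34216321 on GRCm38.p6. Tap1 and Tap2 together form the pump that carries peptides made by the proteasome into the endoplasmic reticulum. The libraries fell apart in Psmb9 after the values were ordered: 7 of them lay between 3.89 and 5.96 FPKM, namely F0_3NC replicate 2, F0_5251KD replicate 1, F0_5NC replicates 1 and 2 and all of F0_5251OV, and the other 5 lay between 1.5 and 2.15 FPKM. The same 7 libraries were the highest in Tap1 (2.29 to 5.41 against 0.63 to 1.04 FPKM), Tap2 (2.91 to 4.25 against 1.43 to 1.94 FPKM) and, by narrow gaps, Psmb8 (1.94 to 6.91 against 1.40 to 1.82 FPKM) and the class I gene H2-K1 (46.2 to 69.5 against 36.2 to 45.8 FPKM). They were not the highest 7 in Psmb10 on chromosome 8, which shared 5 of them, nor in B2m (5 shared), H2-D1 (4) or Tapbp (3).

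Over all 16297 genes tested, 22 (0.135%) had these 7 libraries on top, counting Psmb9 itself, and 7 of the 22 were on chromosome 17, which held 778 of the genes tested. The regulatory particle subunit Psmd7 on chromosome 8 was among the 22 by a narrow gap. It was at 48.7 to 52.5 FPKM in the 7 libraries and at 45.7 to 48.6 FPKM in the other 5. In 12 further genes the 7 libraries were at the bottom. How many genes would have 7 libraries on top that were picked without regard to the values was not computed. The interferon response gave another order. The transcription factor Irf1 and the effectors Igtp and Iigp1 each shared 6 of the 7, and the summed FPKM of 10 interferon response genes was high in F0_3NC replicate 2 (70.3), F0_5NC replicate 2 (62.4) and F0_5NC replicate 1 (24.3), while the other libraries lay between 5.75 and 15.5. F0_5251OV replicate 2 had the lowest such sum, 5.75 FPKM, and the third highest Psmb9, 4.37 FPKM. The grouping was read from the values and is not one of the study's, and what set it was not tested.

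**Figure D3:**
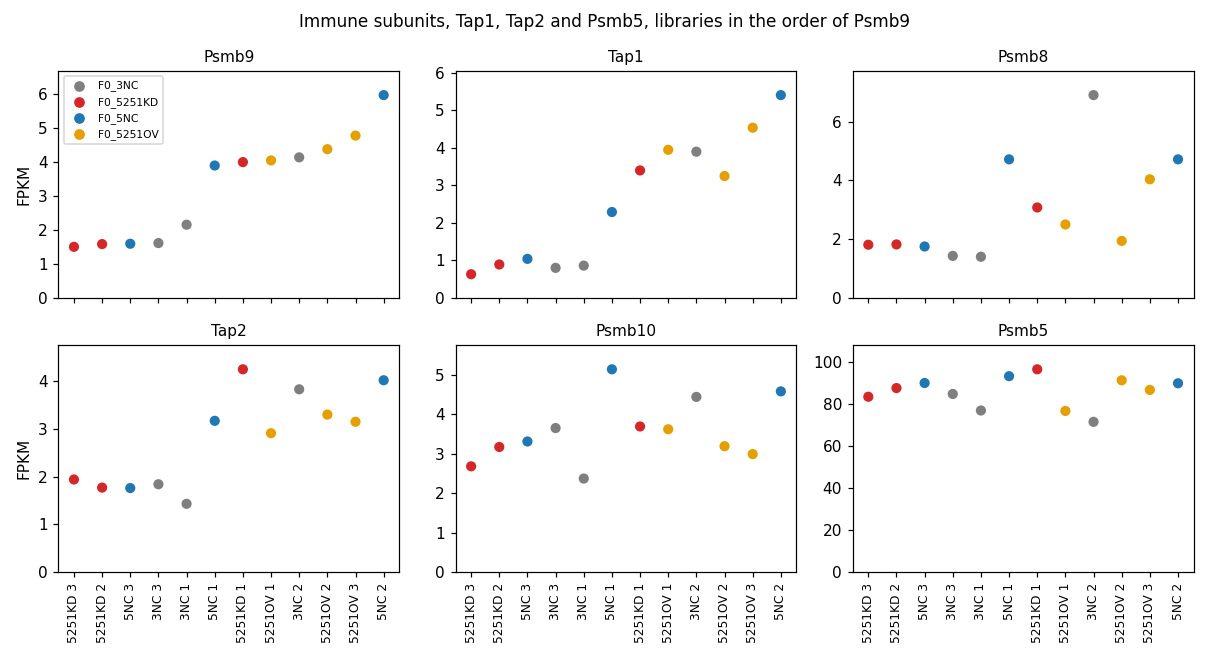
FPKM on linear axes from 0 of Psmb9, Tap1, Psmb8, Tap2, Psmb10 and Psmb5, 1 gene per panel, with the 12 libraries in each panel in the order of Psmb9 and coloured by group. Psmb9, Tap1 and Tap2 step up at the same place in this order, from at most 2.15, 1.04 and 1.94 FPKM to at least 3.89, 2.29 and 2.91 FPKM, and Psmb10 and Psmb5 do not.

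Whether knockdown of lncRNA5251 changed the proteasome genes was tested in F0_5251KD vs F0_3NC. None of the 48 genes passed the threshold. edgeR's quasi-likelihood test called 0 of 48 at a Benjamini-Hochberg adjusted p under 0.05 (0.0245% of all genes tested were called), 0 had an unadjusted p under 0.05 (4.74% of all genes did), and DESeq2 and limma also called 0. The smallest adjusted p by edgeR was 0.897. By limma on log2(FPKM + 1), Psmg3 and Psmb5 had an unadjusted p of 0.0117 and 0.0346, with an adjusted p of 0.901 for each. Log2 fold changes were above 0 for 20 genes and below for 28, with a median of -0.02 against -0.0045 over all genes. For 44 of 48 genes the 95% interval lay within 0.5 of 0 on the log2 scale, and the exceptions were Psmg3, Psmb8, Psmb9 and Psmb10.

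By role, all 7 beta subunits that are not immune forms had values above 0 in F0_5251KD, up to 0.19, and 5 of 7 alpha subunits had values below 0, down to -0.18. All 7 of those beta subunits had values below 0 in F0_3NC vs F0_5NC, which shares the F0_3NC libraries, and in F0_3NC replicate 2 Psmb2 to Psmb6 lay below the mean of their group by 0.12 to 0.23 on the log2 scale (Psmb6 at -0.233, Psmb2 at -0.117). The regulatory particle had 3 of 6 ATPases and 9 of 11 non-ATPase subunits below 0, and all 4 activators were below 0, with medians of 0.00, -0.05 and -0.10. The lowest p among higher genes belonged to the core chaperone Psmg3 (gene ID 66506, chromosome 5, 139823613 to 139826894), at 4.10, 4.77 and 4.01 FPKM in F0_5251KD and 3.27, 2.88 and 3.46 FPKM in F0_3NC. The groups did not overlap, and edgeR put the difference at 0.41 on the log2 scale (SE 0.197, adjusted p 0.897). Its counts were few, from 32 to 53 per library. Psmb5 (gene ID 19173, chromosome 14, 54614120 to 54617995) was at 96.4, 87.5 and 83.3 FPKM in F0_5251KD and 76.8, 71.4 and 84.7 FPKM in F0_3NC, and the groups overlapped (log2 fold change 0.19, SE 0.0987, and 0.12 without F0_3NC replicate 2). Psmd3, a scaffold subunit of the regulatory particle, had a log2 fold change of 0.17 (SE 0.107), which was 0.06 without F0_3NC replicate 2.

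Among the genes with lower values, Psma4 was at 73.5, 68.2 and 69.1 FPKM in F0_5251KD and 74.6, 89.1 and 73.7 FPKM in F0_3NC, without overlap (edgeR log2 fold change -0.18, SE 0.0868, adjusted p 0.897). F0_3NC replicate 2 held the high value, and the log2 fold change was -0.10 without it. The alpha subunit Psma5 had -0.18 (SE 0.110), which was -0.066 without F0_3NC replicate 2, and the germ cell subunit Psma8 -0.15 (SE 0.0900, 95% interval -0.34 to 0.05), which was -0.06 without F0_3NC replicate 2. On the scaled log2 counts of edgeR, 1 gene lay higher without overlap (Psmg3, 2.08% of the 48, against 5.52% of all genes tested) and 2 lay lower (Psma4 and Psmd7, 4.17%, against 6.27%). For the immune subunits the intervals were wide. Psmb8 was at 3.08, 1.82 and 1.81 FPKM in F0_5251KD and 1.40, 6.91 and 1.43 FPKM in F0_3NC, which edgeR put at -0.54 on the log2 scale (SE 0.564, 95% interval -1.76 to 0.67), and without F0_3NC replicate 2 the value was 0.63. Psmb9 (-0.18, SE 0.505) and Psmb10 (-0.12, SE 0.229) also turned to values above 0 without that library, 0.32 and 0.07.

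**Figure D4:**
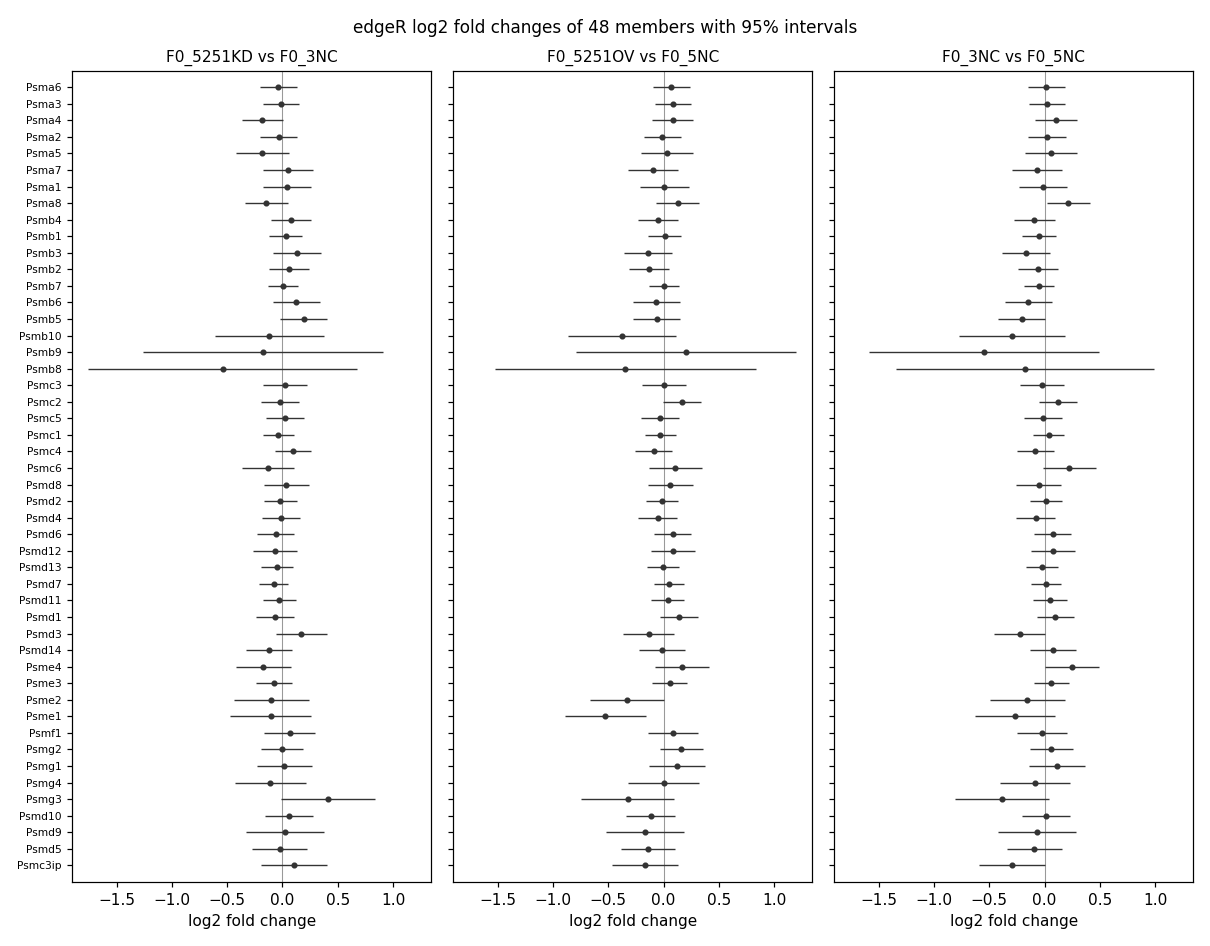
Log2 fold changes by edgeR of the 48 genes tested, as points with 95% intervals, in 3 comparisons, with a line at 0. Most intervals are narrow and include 0 in each comparison, and those of Psmb8 and Psmb9 are the widest, for Psmb8 from -1.76 to 0.67 in F0_5251KD vs F0_3NC.

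Overexpression of lncRNA5251 was tested in F0_5251OV vs F0_5NC, and here the activator Psme1 had the smallest p. edgeR called 0 of 48 genes, as it did over all genes tested (0% called), and DESeq2 and limma called 0 of the 48. By edgeR, Psme1 alone had an unadjusted p under 0.05, against 8.77% of all genes. By DESeq2, Psmc2 also had one (0.0447). Psme1 (gene ID 19186, chromosome 14, 55578494 to 55581527) was at 15.6, 17.5 and 14.1 FPKM in F0_5251OV and 27.3, 23.6 and 19.2 FPKM in F0_5NC. The groups did not overlap, and the difference by edgeR was -0.53 on the log2 scale (SE 0.170, 95% interval -0.89 to -0.16, unadjusted p 0.0081, adjusted p 0.537), or from -0.63 to -0.45 when single libraries were left out. F0_5NC replicate 1, the library with the highest Leydig, Sertoli (100 FPKM) and leukocyte (16.5 FPKM) marker sums, held the highest value, and without it the log2 fold change was -0.45. Interferon response genes also had lower values in F0_5251OV, 10 of 10 below 0 with a median log2 fold change of -1.20 and 3 at an unadjusted p under 0.05, and their summed FPKM was 5.75 to 15.5 in F0_5251OV and 7.64 to 62.4 in F0_5NC. In F0_5251KD vs F0_3NC these genes were also 10 of 10 below 0 (median -0.81), with 3 at an unadjusted p under 0.05 by edgeR. Of all genes tested, 4.74% had such a p there, and 49.1% lay above 0 (49.5% in F0_5251OV vs F0_5NC). The summed FPKM of the interferon response genes was 12.5, 9.37 and 8.92 in F0_5251KD and 9.57, 70.3 and 11.9 in F0_3NC. The high sum was thus that of F0_3NC replicate 2 alone. Psme1 was at -0.11 (SE 0.170) in that comparison. The part of these cell types and of the interferon response in the values of Psme1, Psme2 and Psmb10 was not tested.

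Psme2, which forms rings with Psme1 and lies 5912 bases from it, was at 18.3, 21.4 and 16.5 FPKM in F0_5251OV and 28.0, 23.9 and 20.3 FPKM in F0_5NC, with overlap (-0.33 on the log2 scale, SE 0.157, edgeR adjusted p 0.574). The immune subunit Psmb10 was at 3.62, 3.19 and 2.99 FPKM in F0_5251OV and 5.14, 4.58 and 3.31 FPKM in F0_5NC, also with overlap (log2 fold change -0.38, SE 0.225). Psmb8 (-0.35, SE 0.547) and Psmb9 (0.20, SE 0.462) differed by less than their errors. Psma8 had a log2 fold change of 0.13 (SE 0.0901, 95% interval -0.07 to 0.32), which was 0.056 without F0_5251OV replicate 1. The ATPase Psmc2 (0.17, SE 0.0803), the core chaperone Psmg2 (0.16, SE 0.0891) and the scaffold subunit Psmd1 (0.14, SE 0.0789) had the smallest p among the higher genes, with adjusted p between 0.578 and 0.61 by edgeR, and Psmc2 was at 0.095 without F0_5NC replicate 1. Log2 fold changes were above 0 for 23 genes and below for 25, with a median of 0.00 (-0.0016), and 41 of 48 intervals lay within 0.5 of 0. On the scaled counts Psmd1 lay higher without overlap (2.08% of the 48, against 7.36% of all genes tested), and Psme1, Psmb2 and Psmd10 lay lower (6.25%, against 6.57%).

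Between the control groups, F0_3NC vs F0_5NC, edgeR called 0 of 48 genes (0.331% of all genes were called), with the smallest adjusted p at 0.395, and DESeq2 and limma called 0. By edgeR, Psma8, Psme4 and Psmc3ip were the 3 genes with an unadjusted p under 0.05, which 11.9% of all genes had. By limma on log2(FPKM + 1) the unadjusted p was 0.0826 for Psma8 and 0.0901 for Psme4, but 0.0172 for Psmb5 and 0.0243 for Psmd3. DESeq2 also put Psmb5 (0.0413) and Psmd3 (0.0397) under 0.05. Psma8 values in F0_3NC lay above those in F0_5NC without overlap, a difference of 0.21 on the log2 scale by edgeR (SE 0.0900, 95% interval 0.02 to 0.41, adjusted p 0.395), which was 0.13 without F0_3NC replicate 2. Psme4 (gene ID 103554, chromosome 11, 30771775 to 30881150) was at 127, 157 and 121 FPKM in F0_3NC and 110, 116 and 122 FPKM in F0_5NC, which overlap, while the scaled counts of edgeR did not (log2 fold change 0.25, SE 0.114, adjusted p 0.419). It was 0.14 without F0_3NC replicate 2. Psmc3ip had lower values, at 115, 108 and 116 FPKM in F0_3NC and 134, 164 and 124 FPKM in F0_5NC (edgeR log2 fold change -0.30, SE 0.138, adjusted p 0.419), and its value was -0.14 without F0_5NC replicate 2.

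Of the other genes, Psmc6 had a log2 fold change of 0.22 (SE 0.110), Psmd3 of -0.23 (SE 0.107), Psmb5 of -0.21 (SE 0.0986), and the immune subunits of -0.17 (Psmb8), -0.55 (Psmb9) and -0.30 (Psmb10). Without F0_3NC replicate 2, Psmc6 was at 0.12, Psmd3 at -0.11, Psmb5 at -0.13, Psmb8 at -1.35, Psmb9 at -1.04 and Psmb10 at -0.49. Psmb9 was at -0.035 without F0_5NC replicate 2, and Psmb10 at -0.080 without F0_3NC replicate 1. On the scaled counts Psma8 and Psme4 lay higher without overlap (4.17% of the 48, against 9.58% of all genes tested), and Psmc3ip, Psmd3, Psmb5, Psmg3 and Psmb7 lay lower (10.4%, against 7.41%). In this comparison the viral backbone cannot be told apart from a batch that runs along with it. The epididymis marker Crisp1 also differed between these groups (0.25 to 4.55 FPKM in F0_3NC, 8.17 to 71.2 FPKM in F0_5NC), and its part was not tested. F0_3NC and F0_5NC each enter 2 comparisons, so the values share their libraries. Side by side, Psma8 had -0.15 in F0_5251KD vs F0_3NC, 0.13 in F0_5251OV vs F0_5NC and 0.21 in F0_3NC vs F0_5NC, and Psmg3 had 0.41, -0.32 and -0.38. The Psma8 values became -0.06, 0.056 and 0.13 without F0_3NC replicate 2 (first and last) or F0_5251OV replicate 1 (second).

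Whether knockdown and overexpression acted differently was tested as the difference of both effects. edgeR called 0 of 48 genes (0% of all genes), as did DESeq2 and limma. By edgeR, Psmg3 alone had an unadjusted p under 0.05 (11.3% of all genes did), with a difference of 0.73 on the log2 scale (SE 0.278, 95% interval 0.14 to 1.33, adjusted p 0.42 by edgeR). Psma8 had a difference of -0.27 (SE 0.127, adjusted p 0.441 by edgeR). In this contrast, which carries the error of 4 groups, 31 of 48 intervals lay within 0.5 of 0.

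Part of the spread lay in single libraries. F0_3NC replicate 2 lay more than 0.2 (log2) from the mean of its group in 10 of the 48 genes, and the other libraries in 1 to 5. The genes of F0_3NC replicate 2 and F0_5251OV replicate 1 departed in the same direction for 39 of 48 genes (81.2%), as 76.4% of all genes did. In both libraries Psme4, Psmc6, Psma5, Psma4, Psma8, Psmd12 and Psmd14 lay above the means of their groups, and Psmd9, Psmd3, Psmb6 and Psmf1 below. Across genes, the departure of F0_5251OV replicate 1 had a Pearson's r of -0.53 with the GC content of the transcript over the 48 genes and -0.51 over 15940 genes, and that of F0_3NC replicate 2 had -0.10 and -0.49. The highest departures of F0_3NC replicate 2 were those of Psmb8 (1.44, at 52.5% GC), Psmb9 (0.72, 54.1%), Psmb10 (0.35, 56.5%) and Psme2 (0.31, 52.8%). Pearson's r without these genes was not computed. Genes are not independent replicates, and the part of GC content in these levels was not tested. With both libraries left out, a fit chosen after seeing the data, edgeR again called 0 of 48 genes in each comparison.

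**Figure D5:**
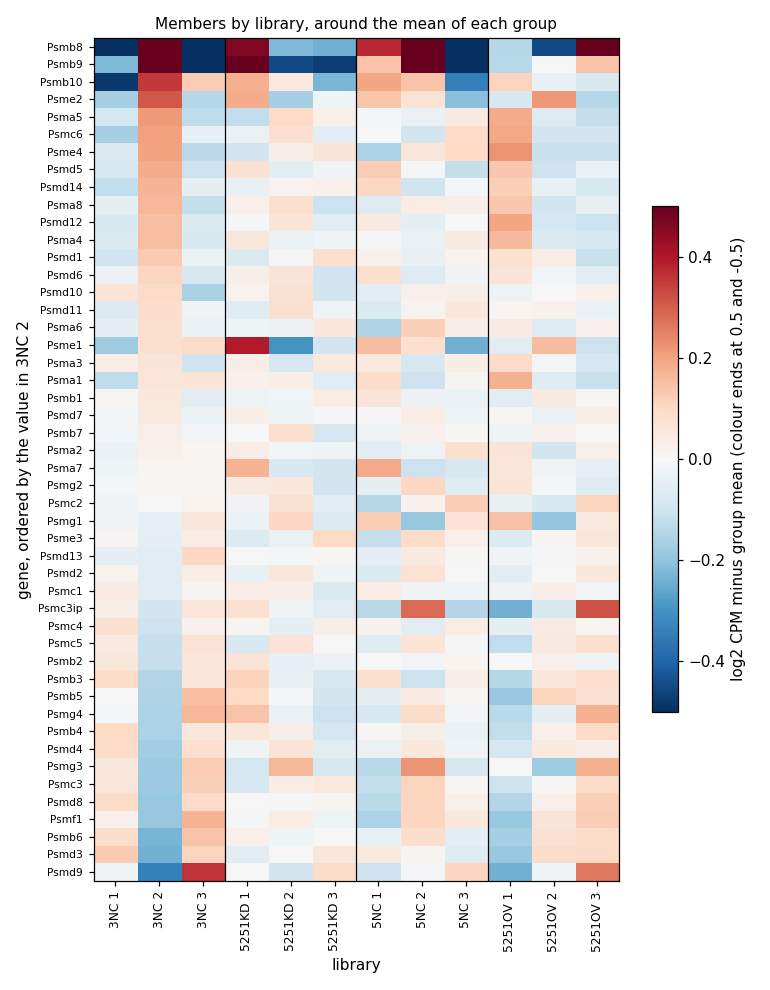
Heat map of 48 genes by 12 libraries, coloured by the log2 CPM minus the mean of the library's group, with the scale ending at 0.5 and -0.5 and genes ordered by their value in F0_3NC replicate 2. Colours of F0_3NC replicate 2 and F0_5251OV replicate 1 have the same sign for 39 of 48 genes, with exceptions among the top rows (Psmb8, Psmb9 and Psme2), and Psmb8 and Psmb9 reach the ends of the scale in libraries of several groups.

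The proteins that work with the proteasome were read from 2 further lists. The partners and regulators held 30 genes tested, among them ubiquitin genes, E1 enzymes, deubiquitinases, shuttle factors and the transcription factors that control the subunits. edgeR called 0 of 30 in every comparison, and 2, 1 and 2 genes had an unadjusted p under 0.05 in F0_5251KD vs F0_3NC, F0_5251OV vs F0_5NC and F0_3NC vs F0_5NC, where 4.74%, 8.77% and 11.9% of all genes tested had one, so these counts are near or below the background. In the first these were Rps27a, a ubiquitin fusion gene, at -0.18 on the log2 scale (SE 0.0658, edgeR adjusted p 0.897), and Uba6, an E1 enzyme, at -0.32. In the second it was Ngly1, the glycanase that processes NRF1, at 0.25 (SE 0.0844, edgeR adjusted p 0.537). In the third they were Ngly1 (0.21) and Zfand5 (0.22), a protein that stimulates the proteasome. Nfe2l1 itself had 0.11, -0.18 and -0.11 in these comparisons, at 15.7 to 23.5 FPKM.

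Of 12 genes of MHC class I antigen processing, edgeR called 0 in every comparison. In F0_5251KD vs F0_3NC 11 of 12 had values below 0 and 0 an unadjusted p under 0.05, and only Tap2 was above 0, at 0.15. Of all genes tested, 49.1% lay above 0 in that comparison and 4.74% had such a p by edgeR. In F0_5251OV vs F0_5NC, Tapbp (tapasin, which loads peptides on class I molecules) was at 17.1, 20.4 and 20.1 FPKM against 31.3, 28.4 and 23.6 FPKM, which edgeR put at -0.48 on the log2 scale (SE 0.112, unadjusted p 0.000794, adjusted p 0.404). Irf1 had -1.24 (SE 0.552, edgeR adjusted p 0.561), and Nlrc5, the activator of class I genes, had the smallest p among higher genes at 0.82 (SE 0.479). In F0_3NC vs F0_5NC, H2-D1 had 0.48 and Tapbp -0.26 at an unadjusted p under 0.05 by edgeR. Such a p was found for 11.9% of all genes tested there, and for 8.77% in F0_5251OV vs F0_5NC. Calls of DESeq2 and limma were not tabulated for these lists.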

How the data were processed

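Testis RNA of 12 mouse libraries was enriched with oligo(dT), primed with random hexamers and sequenced on an Illumina instrument. The authors mapped reads to reference genes with SOAPaligner 2.20, and per the labels the build was mm10. A strand-marking step is not described, so overlapping genes on opposite strands are not separated. Per gene and library the authors deposited an estimated count and an FPKM value, made by a tool not given in the sources used here. Of these counts 11.96% were fractional (tolerance 1e-06), and each was rounded. A further 18 columns of per-sample values match no sample and were not used.

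R 4.3.3 and edgeR 4.0.16 were used for 1 fit of all 4 groups with a two-sided quasi-likelihood F test, after filterByExpr and TMM scaling (factors of 0.97 to 1.078). The fit had 8 residual degrees of freedom. Benjamini-Hochberg adjustment ran over 16297 genes, with a threshold of 0.05. DESeq2 1.42.0, limma 3.58.1 on log2(FPKM + 1) and log2(FPKM + 0.1), upper-quartile scaling, all genes without a filter, 1 CPM in 3 libraries as the filter, the compared groups alone, a replicate block and leaving out each library were the alternatives. The fit was tested on simulated counts. Groups were called overlapping on the log2 CPM of edgeR.

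The members and lists were chosen with earlier results of these data known. Named in each comparison were the 3 genes with the smallest p in each direction, the immune subunits and Psma8, and others were named after their values were seen. Some genes that this rule names are not reported here. Promoters, coordinates and gene IDs are from RefSeq (GRCm38.p6). Other letter strings were also searched in the promoters and are not reported here.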

Additional observations from a re-analysis of the deposited data

How the results depend on the processing

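The count of proteasome genes called was 0 in all 65 combinations of comparison and alternative setting. The alternatives were run for 27 pairs of a gene and a comparison, those with the smallest p in each direction, the immune subunits and Psma8, and not for the other genes. Of their 405 values under 21 settings, 393 kept their direction and 12 turned, all of immune subunits, which entered whatever their p, as Psma8 did. In F0_5251KD vs F0_3NC these were Psmb8 (0.63), Psmb9 (0.32) and Psmb10 (0.075) without F0_3NC replicate 2, again Psmb8, Psmb9 and Psmb10 at 0.65, 0.33 and 0.087 when F0_5251OV replicate 1 was also left out (chosen after seeing the data), and Psmb9 without F0_5251KD replicate 2 (0.061) or 3 (0.069). In F0_3NC vs F0_5NC Psmb8 turned to 0.19 without F0_3NC replicate 1, 0.17 without F0_3NC replicate 3 and 0.071 without F0_5NC replicate 2, and in F0_5251OV vs F0_5NC Psmb9 turned to -0.16 without F0_5NC replicate 3. With single libraries left out, Psmb8 ranged from -0.90 to 0.63, Psmb9 from -0.85 to 0.32 and Psmb10 from -0.33 to 0.075 in F0_5251KD vs F0_3NC, Psmb8 from -1.35 to 0.19 in F0_3NC vs F0_5NC, and Psmb9 from -0.16 to 0.72 in F0_5251OV vs F0_5NC. The cause was not tested. The median of the 48 genes in the difference of effects moved from -0.02 to 0.043 by limma on log2(FPKM + 1) and 0.044 on log2(FPKM + 0.1). Replicate numbers did not pair the libraries: same-numbered libraries of F0_5251KD and F0_3NC had deviations correlated at 0.065 or less, and of F0_5251OV and F0_5NC between -0.173 and -0.055. With the replicate number as a block, 0 genes were called in every comparison. With 3 libraries a group, the median 95% interval reached 0.203 on each side in F0_5251KD vs F0_3NC. That interval is not adjusted for the number of genes, and passing the adjusted threshold takes a larger difference.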
